A study of Mus musculus with 18 samples.

Results

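DN2 thymocytes of fetal mice were compared with DN2 thymocytes of adult mice, taking the 3 arrays that the labels title fetal DN2 and the 3 that they title adult DN2, 6 of the 18 arrays of the series. The study followed early T cell development in the fetal and the adult thymus of C57BL/6 mice on Affymetrix mouse genome arrays, in early thymic progenitors (ETP), DN2 cells and DN3 cells, with 3 arrays for each of the 6 groups. Fetal DN2 cells were sorted as lineage-negative CD44+CD25+ cells from the thymus of embryos at E14.5 by the labels and 1 day later by the methods, with no sex given, and adult DN2 cells by the same markers from female mice aged 4 to 6 weeks. Both groups carried no transgene or treatment according to the labels. RNA came from 80000 cells per sample, and material of 2 fetal or 4 adult sorts was pooled for an array. The labels call the 3 arrays of a group biological replicates and the methods technical ones, so that the p-values below may reflect technical variation only.

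DN2 is the double negative stage at which thymic progenitors express CD25 and lose the ability to become other blood cells, while Notch signals from the thymic stroma sustain the T cell programme. Rearrangement of T cell receptor genes begins around this stage, with the Rag recombinase cutting the DNA, and with terminal transferase adding untemplated nucleotides to the joints in adult mice. The fetal thymus is seeded by earlier waves of progenitors, which give rise among others to innate-like gamma delta T cells whose receptor joints carry few such nucleotides.

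The deposited values were log2 intensities that had been centred, for each probe set, on its median over the 18 arrays. A value therefore says how far an array lay from that median and holds no level of the gene, and genes cannot be ranked by level. All differences below are fetal DN2 minus adult DN2 on the log2 scale with the standard error (SE) of limma, fitted to the 18 arrays together, with n = 3 arrays per group. Calls required a Benjamini-Hochberg adjusted p below 0.05, taken over 22626 probe sets, and a difference of 1.8-fold or more. Each of 12393 genes is represented by 1 probe set. The array medians of the 3 fetal DN2 arrays lay between 8.15e-05 and 0.03 log2. Those of adult DN2 replicates 2 and 3 were 0.02 and -0.000177 log2, and adult DN2 replicate 1 lay lower, at -0.09 log2. Without adult DN2 replicate 1, 359 probe sets were called higher and 470 lower, in place of 423 (1.87%) and 356 (1.57%) with the 6 arrays. Pooled over probe sets, the SD between arrays was 0.337 log2 in fetal DN2 and 0.498 log2 in adult DN2. The sorting genes *Cd44*, *Il2ra* (CD25) and *Kit* differed by 0.11 ± 1.36, 0.74 ± 0.77 and 0.42 ± 0.66 log2, and none of these differences was called (limma adjusted p = 0.966, 0.61 and 0.702). Of the 11 sorting and stage markers measured, 0 were called higher and 1 lower, the surface antigen gene *Ly6d*.

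Of the 12393 genes, 262 were called higher in fetal DN2 (2.11%) and 241 lower (1.94%). The median difference over all genes was 0.03 log2. The median size of the called differences was 1.72 log2 among the higher and 1.71 log2 among the lower genes, and 106 and 94 of them reached 2 log2, a 4-fold difference. The limit of 1.8-fold and the choice of probe sets with a large SD both favour large sizes. At least 4 log2 was reached by 28 higher and 20 lower genes, and at least 6 log2 by 11 and 3. The fetal and adult arrays did not overlap for 260 of the 262 higher genes and for 241 of the 241 lower ones. Over all probe sets, 8.97% stood higher and 4.99% lower without overlap. Of the 503 called genes, 118 of the higher and 129 of the lower ones were called in each of the 6 fits that left out 1 DN2 array, and 98 were also called from the 6 DN2 arrays alone.

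**Figure D1:**
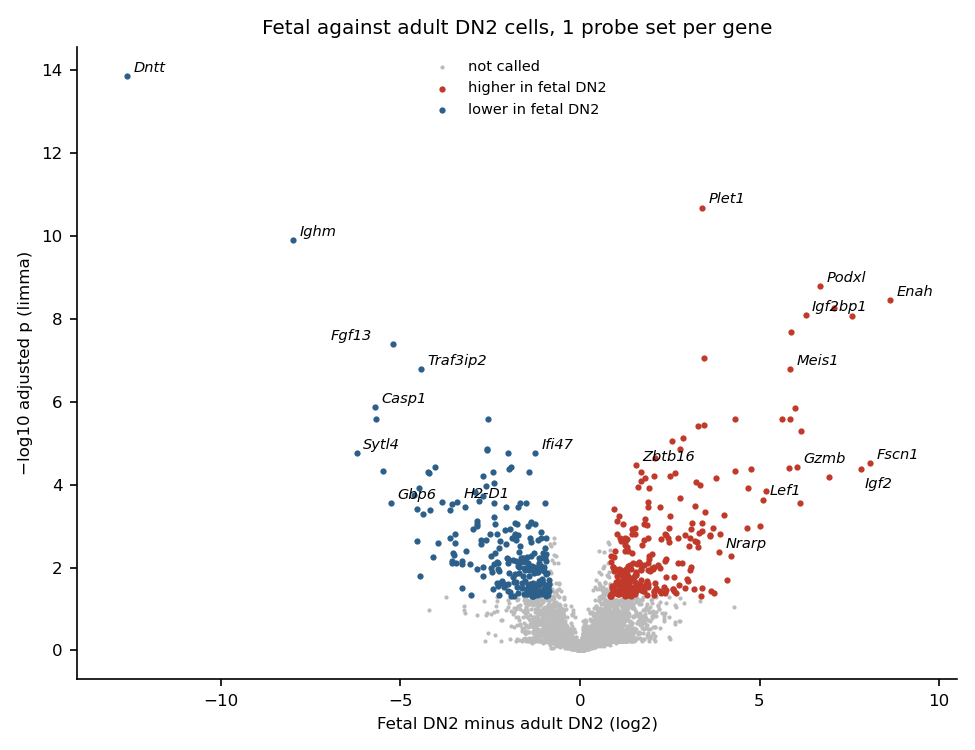
Each point is 1 of 12393 genes, with the fetal minus adult DN2 difference (log2, horizontal axis) against the adjusted p of limma (minus log10, vertical axis), and called genes in colour. *Dntt* lies far to the left at -12.61 log2 and *Enah* far to the right at 8.64 log2.

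The largest fall was that of *Dntt*, which encodes terminal transferase. The fetal DN2 arrays stood at -5.68, -5.69 and -5.71 log2, against 6.88, 6.72 and 7.16 log2 in the adult DN2 arrays. The arrays of each age lay close together and the ages were far apart, with a difference of -12.61 ± 0.16 log2 (limma adjusted p = 1.34e-14), and 2 of the 3 probe sets of the gene were called. Next came *Ighm*, the heavy chain constant region of immunoglobulin M, whose transcripts are known to arise in T cell precursors without a rearranged gene. It stood at -6.42, -6.45 and -6.46 log2 in fetal DN2, against 1.64, 1.38 and 1.60 log2 in adult DN2, a difference of -7.98 ± 0.23 log2 (adjusted p = 1.24e-10). Here only 2 of the 11 probe sets were called and the mean over them differed by -1.58 log2, so the probe set chosen decides the size. *Sytl4*, a Rab27 effector in vesicle transport, and *Casp1*, the inflammatory caspase, followed with -6.22 ± 0.54 and -5.71 ± 0.37 log2. For *Sytl4* 1 of 2 probe sets was called, with a mean over both of -3.07 log2. *Casp1* stood at -3.69, -2.34 and -2.88 log2 in fetal DN2 and at 2.19, 2.75 and 3.29 log2 in adult DN2.

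A further fall was that of *Cdkn2c*, which encodes the cyclin-dependent kinase inhibitor p18. Its fetal DN2 arrays read -2.33, -3.44 and -3.22 log2 and its adult DN2 arrays 2.97, 2.62 and 2.43 log2, a difference of -5.67 ± 0.41 log2 (adjusted p = 2.56e-06). The groups were again well apart. Among the 15 largest falls were also the zinc finger gene *Klf9* (-5.49 log2), the interferon-induced GTPase gene *Gbp6* (-5.27), *Fgf13*, an intracellular fibroblast growth factor homologue (-5.21), the calcium and calmodulin-dependent kinase gene *Camk1d* (-4.55), *Ly6d* (-4.53), the membrane protein gene *Emp1* (-4.48), *Trim16*, a tripartite motif gene (-4.44), the signalling adaptor gene *Traf3ip2* (-4.42) and the nucleosome-binding *Hmgn3* (-4.36). *Klf9* was called by 3 of its 7 probe sets, and their mean was -1.45 log2. For *Fgf13* and *Camk1d* 1 of 2 probe sets was called each, with means of -2.59 and -2.32 log2. The call of *Trim16* ended without fetal DN2 replicate 2 (adjusted p = 0.0652) or adult DN2 replicate 3 (0.0649), and the calls of the other 14 held without each of the 6 arrays.

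The largest rise was that of *Enah*, a regulator of actin filaments at the cell edge. It stood at 4.69, 3.77 and 4.31 log2 in fetal DN2 and at -4.60, -4.27 and -4.30 log2 in adult DN2. Of its 4 probe sets 2 were called, and their mean differed by 3.30 log2. The actin-bundling gene *Fscn1* stood at 4.26, 4.37 and 3.70 log2 in fetal DN2, against -5.71, -1.74 and -4.47 log2 in adult DN2, and rose by 8.08 ± 0.74 log2 (adjusted p = 3.08e-05). Adult DN2 replicate 2 lay nearest to the fetal arrays, and 1 of 4 probe sets was called, with a mean over them of 2.16 log2. *Podxl*, an anti-adhesive sialomucin of blood progenitors and endothelium, differed by 6.69 ± 0.23 log2 (adjusted p = 1.58e-09), with fetal DN2 arrays between 4.23 and 4.99 log2 and adult DN2 arrays between -2.21 and -1.91 log2. Of its 2 probe sets 1 was called, and their mean differed by 3.37 log2.

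The glycosyltransferase gene *B4galnt2* was higher by 7.57 ± 0.32 log2 and the ribosomal protein gene *Rps4l* by 6.93 ± 0.70 log2. The tyrosine phosphatase gene *Ptpn13* was higher by 6.16 ± 0.47 log2, the asparagine synthetase gene *Asns* by 6.12 ± 0.73 log2, the desmosome component *Dsp* by 5.99 ± 0.40 log2, the scaffold gene *Homer2* by 5.87 ± 0.27 log2 and the inflammasome receptor gene *Nlrp6* by 5.84 ± 0.42 log2. *Nlrp6* read 6.38, 4.57 and 5.59 log2 in fetal DN2 and -0.39, -0.29 and -0.31 log2 in adult DN2. *Ptpn13* was called by 1 of 2 probe sets and *Dsp* by 2 of 3, with means over them of 3.09 and 3.62 log2. Both probe sets of *Asns* were called, and the calls of the 15 largest rises held without each of the 6 arrays. In bulk samples fewer cells of a type and less RNA per cell cannot be told apart.

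**Figure D2:**
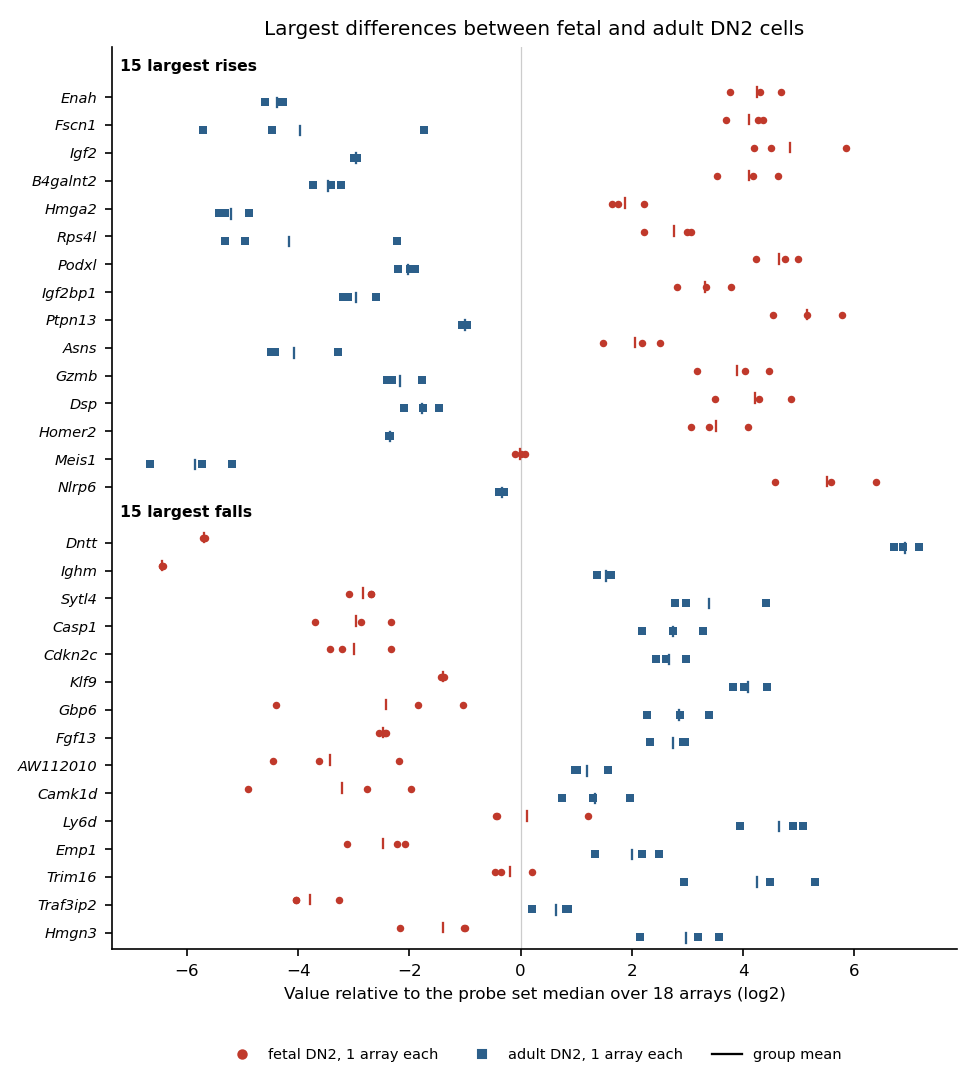
Values of the 15 largest rises and 15 largest falls in each array (log2 relative to the probe set median over 18 arrays, horizontal axis), with fetal DN2 arrays as red circles, adult DN2 arrays as blue squares and a line at each group mean. The 2 groups do not overlap in any of the 30 genes, which the rule for choosing them required.

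Of 13 measured genes of the fetal blood programme, which is active in fetal stem and progenitor cells, 4 were called higher in fetal DN2 and 0 lower, with a median of 0.09 log2 over the list. The other 9 were not called, and 5 of the 13 differed by less than 0.1 log2. Centred values do not show whether such genes were detected at all. *Hmga2*, a chromatin protein of fetal stem cells that is repressed by let-7 microRNAs in adults, stood at 2.22, 1.76 and 1.65 log2 in fetal DN2 and at -4.88, -5.32 and -5.43 log2 in adult DN2. The difference was 7.09 ± 0.28 log2 (adjusted p = 5.37e-09) and 3 of 3 probe sets were called. *Igf2bp1*, an RNA-binding protein of fetal tissue that binds *Igf2* messenger RNA, was higher by 6.28 ± 0.26 log2 (adjusted p = 7.88e-09), with fetal DN2 arrays at 3.79, 2.81 and 3.34 log2 and adult DN2 arrays at -3.19, -3.10 and -2.61 log2. The related *Igf2bp3* stood at 1.12, 0.80 and 1.11 log2 in fetal DN2 and at -3.11, -1.12 and -0.20 log2 in adult DN2. Its arrays did not overlap and 3 of 4 probe sets were called, but the one representing the gene was not (2.48 ± 0.66 log2, adjusted p = 0.0528).

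The de novo DNA methyltransferase gene *Dnmt3a* was higher by 1.70 ± 0.17 log2 (adjusted p = 4.94e-05). The call rested on 1 of 5 probe sets, and their mean of 0.45 log2 was not called (adjusted p = 0.156). *Dnmt3b* was higher by 1.19 ± 0.30 log2 (adjusted p = 0.0395), a call that ended without any 1 fetal DN2 replicate (adjusted p = 0.0897, 0.144 and 0.0901 without replicates 1, 2 and 3) or without adult DN2 replicate 1 (0.0838) or 3 (0.128).

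Among 23 measured imprinted growth genes 3 were called higher and 0 lower (list median 0.05 log2). The fetal growth factor gene *Igf2* stood at 5.85, 4.50 and 4.19 log2 in fetal DN2 and at -2.94, -3.0 and -2.97 log2 in adult DN2. The difference was 7.82 ± 0.75 log2 (adjusted p = 4.17e-05) in 1 of 2 probe sets, with a mean over both of 3.93 log2. The growth suppressor gene *Ndn* (necdin) was higher by 5.0 ± 0.70 log2 (adjusted p = 0.000989), with arrays at 0.43, 1.54 and 1.84 log2 in fetal DN2 and at -3.95, -3.72 and -3.53 log2 in adult DN2. Of its 8 probe sets 3 were called, with a mean of 1.72 log2. *Grb10*, an adaptor that restrains insulin and growth factor receptors, was higher by 1.74 ± 0.28 log2 (adjusted p = 0.00292), and its 3 probe sets together gave 0.60 log2, under the fold limit.

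Of 34 stem and progenitor genes 3 were called higher and 0 lower (list median 0.03 log2). *Meis1*, a homeobox cofactor of HOXA9 in stem cells, stood at 0.08, -0.11 and 0.01 log2 in fetal DN2 and at -6.66, -5.18 and -5.74 log2 in adult DN2. The fetal arrays thus lay at the median of the 18 arrays and the adult ones far below it, a difference of 5.85 ± 0.32 log2 (adjusted p = 1.61e-07). *Prom1* (CD133) was higher by 2.52 ± 0.25 log2 (adjusted p = 6.15e-05). *Robo1*, a Slit receptor, had 2.40 ± 0.58 log2 (adjusted p = 0.034), and the call ended without any 1 fetal DN2 replicate (adjusted p = 0.113, 0.0883 and 0.0583), without adult DN2 replicate 1 (0.0896) or 3 (0.0515), and with array weights (1.81 log2, 0.0706).

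Of 17 measured genes of V(D)J recombination and end joining, 2 were called higher and 2 lower in fetal DN2, with *Dntt* the largest. *Rag2*, a subunit of the recombinase, stood at 1.33, 0.66 and 1.03 log2 in fetal DN2 and at -0.14, -1.48 and -0.05 log2 in adult DN2. It was higher by 1.56 ± 0.32 log2 (adjusted p = 0.0127), while its partner *Rag1* differed by 1.06 ± 0.43 log2 with overlapping arrays and was not called (adjusted p = 0.243). *Polm*, a polymerase of end joining related to terminal transferase, was higher by 1.05 ± 0.27 log2 (adjusted p = 0.0442), the opposite direction to *Dntt*. That call ended without fetal DN2 replicate 2 (adjusted p = 0.198) or 3 (0.164), without adult DN2 replicate 1 (0.105), 2 (0.0753) or 3 (0.101), with array weights (0.0596), and when replicate numbers entered the fit as a block. *Xrcc6*, which encodes the Ku70 end-binding protein, was lower, at -0.89, -1.35 and -0.97 log2 in fetal DN2 and at 0.36, 0.01 and 1.29 log2 in adult DN2 (-1.62 ± 0.29 log2, adjusted p = 0.00596).

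In the T cell receptor signalling list 1 of 33 genes was called higher and 4 lower (list median -0.21 log2). Higher was *Txk*, a Tec family kinase, at 3.87, 4.28 and 5.13 log2 in fetal DN2 and at -0.50, -0.34 and -0.18 log2 in adult DN2 (4.77 ± 0.45 log2, adjusted p = 4.17e-05). Lower were the adaptor gene *Sh2d1a* (SAP) with -3.56 ± 0.65 log2, the CD3 zeta chain gene *Cd247* with -2.38 ± 0.45 log2, the phosphatase gene *Ptpn22* with -1.68 ± 0.20 log2 and the kinase gene *Zap70* with -1.28 ± 0.31 log2. For *Sh2d1a* fetal DN2 replicate 1 stood at -0.52 log2 and the other fetal arrays at -4.25 and -3.37 log2, all below the adult DN2 arrays at 1.14, 0.89 and 0.52 log2. The call of *Zap70* (adjusted p = 0.0371) ended without fetal DN2 replicate 1 (0.064), 2 (0.182) or 3 (0.0522) or adult DN2 replicate 2 (0.0975). *Cd247* was called by 1 of 4 probe sets, and their mean of -0.64 log2 was not called (adjusted p = 0.0939). The invariant pre-T cell receptor chain gene *Ptcra* stood higher in fetal arrays, at 2.72, 0.34 and 0.92 log2, against -0.34, -0.39 and -1.85 log2 in adult DN2, without passing the test (adjusted p = 0.102).

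Among 31 T lineage transcription factor genes 3 were called higher, 0 lower, and the list median was 0.02 log2. *Lef1*, a partner of beta-catenin in T cell development, stood at 3.88, 1.51 and 2.41 log2 in fetal DN2, against -1.53, -2.79 and -3.18 log2 in adult DN2. The groups did not overlap and differed by 5.10 ± 0.59 log2 (adjusted p = 0.00023). *Id2*, an inhibitor of E proteins needed by innate lymphocytes, was higher by 2.64 ± 0.26 log2 (adjusted p = 5.31e-05) in 1 of 3 probe sets (mean 0.98 log2), and *Zbtb16* (PLZF), the factor of innate-like T cells, by 1.56 ± 0.14 log2 (adjusted p = 3.39e-05). *Zbtb16* stood at 1.59, 1.47 and 1.53 log2 in fetal DN2 and at -0.09, -0.02 and 0.01 log2 in adult DN2, and both of its probe sets were called, with a mean over them of 2.78 log2. *Bcl11b* and *Gata3*, 2 factors of T cell commitment, had overlapping arrays and were not called (-0.80 ± 0.49 and 0.81 ± 0.41 log2, adjusted p = 0.568 and 0.433).

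Of 23 genes of Notch receptors and targets 2 were called higher and 0 lower (list median 0.03 log2), and both encode feedback regulators of Notch signalling. Neither was called from the 6 DN2 arrays alone. *Nrarp*, which destabilizes the Notch intracellular domain, stood at 0.79, 1.03 and 0.44 log2 in fetal DN2, against -2.90, -1.98 and -4.51 log2 in adult DN2. The difference was 3.88 ± 0.66 log2 (adjusted p = 0.00416) and 2 of 2 probe sets were called. *Dtx1* (Deltex), at 0.99, 0.18 and 0.75 log2 in fetal DN2 and -3.0, -1.28 and -3.58 log2 in adult DN2, was higher by 3.26 ± 0.52 log2 (adjusted p = 0.00238). The target gene *Hes1* lay at 0.49, 0.28 and 0.38 log2 in fetal DN2 and at -0.50, -0.64 and -2.09 log2 in adult DN2. Its groups did not overlap, but it was not called (1.46 ± 0.42 log2, adjusted p = 0.0772). The receptor genes *Notch1* and *Notch3* had overlapping arrays and differed by 0.95 ± 0.55 and 0.18 ± 0.67 log2 (adjusted p = 0.525 and 0.877).

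Genes of gamma delta and innate-like lymphocytes had 5 of 39 members called higher and 0 lower (list median 0.04 log2). *Gzmb*, which encodes the cytotoxic protease granzyme B, stood at 3.17, 4.47 and 4.04 log2 in fetal DN2 and at -2.40, -2.31 and -1.78 log2 in adult DN2 (6.06 ± 0.57 log2, adjusted p = 3.75e-05). *Fcer1g*, the signalling Fc receptor gamma chain of innate lymphocytes, was at 1.79, 2.94 and 1.5 log2 in fetal DN2, against -0.90, 0.02 and -1.08 log2 in adult DN2 (2.73 ± 0.42 log2, adjusted p = 0.00195). *Id2* and *Zbtb16*, given above, are also on this list. *Gzma* (granzyme A) was higher by 2.94 ± 0.69 log2 (adjusted p = 0.0309), and the call ended without fetal DN2 replicate 1 (0.0758), 2 (0.102) or 3 (0.0835) or adult DN2 replicate 2 (0.0756) or 3 (0.0802). Of 16 natural killer genes, 3 were called higher, the same *Gzma*, *Gzmb* and *Fcer1g*. The list's mean lay between 0.42 and 0.57 log2 in the fetal DN2 arrays and between -0.43 and -0.22 log2 in the adult DN2 arrays. The natural killer genes *Ncr1* (NKp46), *Klrd1* (CD94) and *Prf1* (perforin) stood between -0.09 and 0.03 log2 in the 6 arrays. They do not stand for the whole list, to which the 3 genes called higher also belong. The part of natural killer cells in the granzyme values was not tested.

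Genes of the type I interferon response had by number the most falls of the lists used here, with 10 of 37 measured genes called lower in fetal DN2 and 2 higher, and a list median of -0.53 log2. Without adult DN2 replicate 1 the counts were 11 and 1, and from the 6 DN2 arrays alone 1 and 1. Interferons act through Jak kinases and STAT factors on a promoter element, the interferon stimulated response element, whose core is read as GAAANNGAAA. It was searched on both strands in the RefSeq promoters of assembly GRCm38.p6, which run from 250 bases before to 50 bases after a gene's start, and 1079 of 27025 genes (3.99%) held at least 1 match, overlapping matches counted. Of the 10 genes that fell, 7 have a promoter in that table and 2 of them hold the core (28.6%), *Rsad2* and *Oas1a*, while both genes called higher hold it, *Ifitm2* and *Ifitm3*. Of the 18 others with a promoter that were not called, 8 held it (44.4%). So the core was found in promoters of genes of either direction. The stretches with the core are shown for these 4 genes, since they are the called ones that hold it, along the gene's strand, with the core on either strand in capitals. They lie at chr12:26456453-26456582 (*Rsad2*), chr5:120907526-120907655 (*Oas1a*), chr7:140955962-140956091 (*Ifitm2*) and chr7:141010715-141010744 (*Ifitm3*), each on the minus strand.
Rsad2: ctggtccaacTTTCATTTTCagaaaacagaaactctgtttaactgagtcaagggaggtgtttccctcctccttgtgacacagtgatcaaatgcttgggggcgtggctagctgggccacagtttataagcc
Oas1a: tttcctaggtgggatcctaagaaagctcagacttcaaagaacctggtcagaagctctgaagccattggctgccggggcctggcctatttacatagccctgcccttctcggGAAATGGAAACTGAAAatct
Ifitm2: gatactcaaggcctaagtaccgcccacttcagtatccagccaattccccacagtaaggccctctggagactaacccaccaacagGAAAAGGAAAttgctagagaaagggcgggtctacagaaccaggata
Ifitm3: agGAAAAGGAAActtctgaGAAACCGAAAc
In *Rsad2* the core starts at base -120 from the start site, in *Oas1a* 2 overlapping cores start at -20 and -14, in *Ifitm2* 1 starts at -46, and in *Ifitm3* 2 start at bases 3 and 20 after the start. *Usp18*, *Dhx58*, *Rtp4*, *Gbp6*, *Iigp1* and *Ifi204* were not matched in the promoter table.

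*Rsad2* (viperin, an antiviral enzyme) stood at -2.18, -2.12 and -0.91 log2 in fetal DN2, against 1.09, 1.02 and 2.57 log2 in adult DN2. The groups did not overlap, and the difference was -3.30 ± 0.60 log2 (adjusted p = 0.00694) in 1 of 3 probe sets, with a mean over them of -1.30 log2. *Oas1a*, a synthetase of the RNA degradation pathway, stood at -1.79, -0.82 and -0.42 log2 in fetal DN2, against 0.96, 1.63 and 1.29 log2 in adult DN2 (-2.30 ± 0.34 log2, adjusted p = 0.00158). *Usp18*, which removes ISG15 from proteins and dampens the receptor, read -2.64, -3.21 and -1.73 log2 in fetal DN2 and 0.21, 1.75 and 1.34 log2 in adult DN2. *Ifit2*, an RNA-binding antiviral gene, was lower with -2.86 ± 0.40 log2, the helicase regulator *Dhx58* with -3.17 ± 0.54 log2 and *Rtp4* with -2.06 ± 0.25 log2 (1 of 2 probe sets, mean -0.98 log2). *Dhx58* had its widest spread in adult DN2, with 0.47, 3.44 and 1.53 log2, and 1 of its 3 probe sets was called (mean -1.04 log2).

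The transcription factor gene *Irf9*, the DNA-binding part of the interferon-activated complex, was lower with -1.57 ± 0.31 log2 (adjusted p = 0.0103). Its adult DN2 replicate 1, at -0.40 log2, lay nearest to the fetal DN2 arrays at -0.98, -0.95 and -1.15 log2. *Irf1* was lower with -0.92 ± 0.19 log2 (adjusted p = 0.0136), a call that ended without fetal DN2 replicate 2 (0.0699) or adult DN2 replicate 3 (0.0536). The other 9 of the 10 falls held without each of the 6 arrays, and 0 of the 2 rises did. The rises were those of *Ifitm2* and *Ifitm3*, membrane proteins that restrict virus entry and that are known also as markers of primordial germ cells and stem cells. *Ifitm3* stood at 1.03, 1.15 and 0.89 log2 in fetal DN2, against -2.60, -0.83 and -3.70 log2 in adult DN2 (3.4 ± 0.80 log2, adjusted p = 0.0313), and *Ifitm2* differed by 3.64 ± 0.89 log2 (adjusted p = 0.0377). The call of *Ifitm3* ended without fetal DN2 replicate 1 (0.0737), 2 (0.115) or 3 (0.0782) or adult DN2 replicate 1 (0.0783) or 3 (0.118). That of *Ifitm2* ended without fetal DN2 replicate 1 (0.0998), 2 (0.143) or 3 (0.0671) or adult DN2 replicate 3 (0.119).

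Interferon-inducible GTPases and the DNA-sensing p200 family had 4 of 14 genes called lower and 1 higher (list median -0.48 log2). *Gbp6* stood at -1.03, -4.41 and -1.84 log2 in fetal DN2 and at 2.86, 2.28 and 3.38 log2 in adult DN2 (-5.27 ± 0.63 log2, adjusted p = 0.000272). The p200 gene *Ifi209* was lower with -4.09 ± 0.72 log2 in both of its probe sets, the GTPase gene *Iigp1* with -2.47 ± 0.48 log2 and *Ifi47* with -1.25 ± 0.11 log2. These 4 calls held without each of the 6 arrays, and from the 6 DN2 arrays alone 1 gene of the list was called lower and 0 higher. *Ifi204*, another p200 gene, went the other way with 4.62, 0.72 and 3.68 log2 in fetal DN2, against -1.81, -0.63 and -0.78 log2 in adult DN2 (4.09 ± 0.89 log2, adjusted p = 0.0199). Its call ended without fetal DN2 replicate 1 (0.0708) or 3 (0.0783) or adult DN2 replicate 1 (0.065), and with array weights.

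Antigen presentation through MHC class I, whose genes interferons are known to induce, had 5 of 19 members called lower and 0 higher (list median -0.53 log2). The classical chains *H2-K1* and *H2-D1* led. *H2-D1* stood at -2.10, -1.54 and -2.13 log2 in fetal DN2, against 1.49, 1.19 and 1.8 log2 in adult DN2 (-3.42 ± 0.41 log2, adjusted p = 0.000265), and 4 of its 9 probe sets were called, with a mean over the 9 of -1.41 log2. *H2-K1* stood at -0.71, -0.62 and -0.73 log2 in fetal DN2, against 1.65, 2.25 and 2.62 log2 in adult DN2 (-2.86 ± 0.39 log2, adjusted p = 0.000767), and 4 of 4 probe sets were called. These genes are near-identical in parts of their sequence, so that probe sets may pick up more than 1 of them. The nonclassical *H2-M3* was lower with -1.79 ± 0.28 log2, the peptide transporter *Tap1* with -1.69 ± 0.29 log2 and the immunoproteasome subunit *Psmb9* with -0.97 ± 0.17 log2. For *Tap1* 1 of 4 probe sets was called and their mean was -0.40 log2, under the fold limit. *Tap1* and *Psmb9* are counted in the type I interferon list as well. These 5 calls held without each of the 6 arrays, and from the 6 DN2 arrays alone 2 of the 19 genes were called lower.

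**Figure D3:**
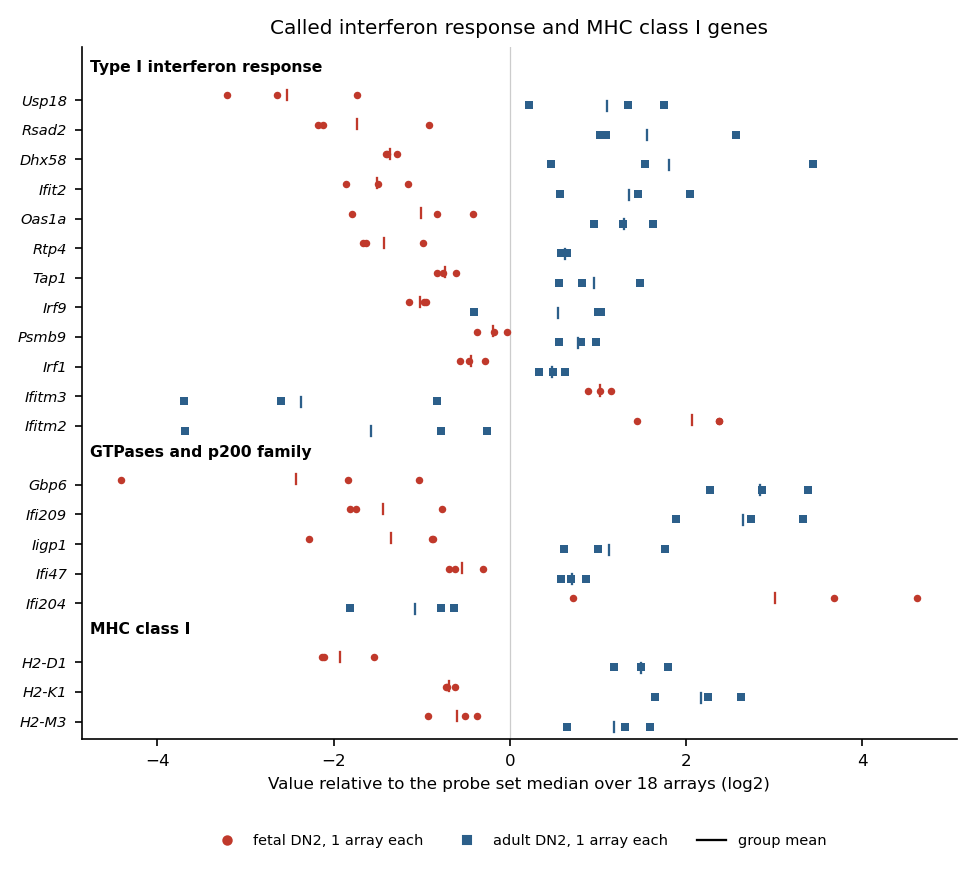
Called genes of the interferon and MHC class I lists in each array (log2 relative to the probe set median over 18 arrays, horizontal axis), with fetal DN2 arrays as red circles, adult DN2 arrays as blue squares and a line at each group mean. The fetal DN2 arrays lie below those of adult DN2 except for *Ifitm3*, *Ifitm2* and *Ifi204*, where they lie above.

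Of 18 interferon and Jak-Stat receptor genes 2 were called lower and 0 higher. *Ifngr1*, the ligand-binding chain for interferon gamma, stood at -0.30, -1.12 and -0.26 log2 in fetal DN2, against 0.83, 0.91 and 0.93 log2 in adult DN2 (-1.45 ± 0.20 log2, adjusted p = 0.00101). *Ifnar2*, a chain of the type I interferon receptor, was lower with -1.45 ± 0.33 log2 (adjusted p = 0.0268), a call that ended without fetal DN2 replicate 1 (0.0535), 2 (0.116) or 3 (0.0677) or adult DN2 replicate 2 (0.0556) or 3 (0.103), and the mean over its 2 probe sets was -0.91 log2. Of the 28 cytokine receptor genes 1 was called higher and 4 lower (list median -0.11 log2). *Tnfrsf18* (GITR) stood at -0.82, -0.57 and -0.34 log2 in fetal DN2 and at 1.22, 2.24 and 2.05 log2 in adult DN2 (-2.41 ± 0.24 log2, adjusted p = 5.01e-05). The interleukin-27 receptor gene *Il27ra* was lower with -2.04 ± 0.36 log2, and the costimulatory receptor gene *Tnfrsf9* (4-1BB) was higher by 2.24 ± 0.43 log2 (adjusted p = 0.0102) in 1 of 3 probe sets, with a mean of 0.94 log2. Of 9 MHC class II genes 1 was called lower, the peptide-loading *H2-DMa* with -2.28 ± 0.52 log2 (adjusted p = 0.0275), a call that ended without fetal DN2 replicate 1 (0.0886) or 3 (0.0933) or adult DN2 replicate 2 (0.0792) or 3 (0.0909).

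Of 44 integrin and adhesion genes 4 were called higher and 1 lower (list median 0.04 log2). The desmosomal cadherin gene *Dsg2* stood at 3.42, 1.72 and 2.50 log2 in fetal DN2 and at -1.84, -1.73 and -1.74 log2 in adult DN2 (4.32 ± 0.31 log2, adjusted p = 2.56e-06), with 2 of 6 probe sets called and a mean over them of 1.62 log2. The desmosome component *Dsp*, given above, was also among the rises. The semaphorin receptor gene *Nrp1* was higher by 3.62 ± 0.54 log2 (adjusted p = 0.00167), at 3.55, 0.67 and 2.10 log2 in fetal DN2 and -2.19, -1.68 and -0.67 log2 in adult DN2, and with array weights it was not called (adjusted p = 0.0573). *Alcam* (CD166) was lower, at -1.57, -1.64 and -1.66 log2 in fetal DN2, against 2.91, 1.76 and 2.96 log2 in adult DN2 (-4.17 ± 0.52 log2, adjusted p = 0.000404), in 1 of 2 probe sets with a mean of -2.71 log2. Of 31 immediate early and heat shock genes, which respond to tissue handling, 1 was called higher, the zinc finger factor *Klf4*, at 1.73, 1.02 and 1.78 log2 in fetal DN2 and -4.14, -3.78 and -3.08 log2 in adult DN2 (5.17 ± 0.57 log2, adjusted p = 0.000141, 1 of 2 probe sets, mean 2.62 log2). In the BMP and TGF-beta list, 1 of 25 genes was called higher, the receptor gene *Bmpr1a* by 2.36 ± 0.35 log2 (adjusted p = 0.00158, 1 of 5 probe sets, whose mean of 0.47 log2 was under the fold limit), and 1 lower.

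In the list of the BCL2 family, which governs mitochondrial cell death, 3 of 15 genes were called higher and 1 lower, and 1 of these 4 calls held without each of the 6 arrays. It was *Pmaip1* (NOXA), a death-promoting BH3 protein, at 1.5, 1.59 and 1.11 log2 in fetal DN2 and -1.23, -3.34 and -3.88 log2 in adult DN2 (4.21 ± 0.74 log2, adjusted p = 0.00538). Of 22 genes of DNA methylation and Polycomb complexes 3 were called higher and 1 lower, and 1 of these calls, that of *Dnmt3a*, held without each array. Of 18 chemokine and homing receptor genes 1 was called higher, and that call did not hold without each array.

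Over all genes 2.11% were called higher and 1.94% lower at DN2. Lists of the length used here with 0 calls lie near these shares. None of 31 DNA replication genes and none of 30 mitosis genes was called at DN2 (list medians -0.09 and -0.11 log2). At ETP 10 and 13 of them were called higher in fetal than in adult cells, against 6.16% of all genes. The counts of the 2 stages were not compared by a test. Of 18 genes of D-type cyclins and cyclin-dependent kinase inhibitors 1 was called, the fall of *Cdkn2c*. Of the 31 oxidative phosphorylation genes 1 was called higher, *Cycs* (cytochrome c), by 1.09 ± 0.14 log2 (adjusted p = 0.000569), with a list median of 0.27 log2. The mean over its 3 probe sets, 0.65 log2, was under the fold limit. The 24 ribosomal protein genes and the 29 Wnt and Hedgehog genes gave 0 calls. Of 19 glycolysis genes 2 were called higher, the glucose transporter gene *Slc2a1* by 2.00 ± 0.39 log2 and *Pgam1* by 0.96 ± 0.19 log2, and both calls ended without fetal DN2 replicate 2 (adjusted p = 0.0506 and 0.0694).

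**Figure D4:**
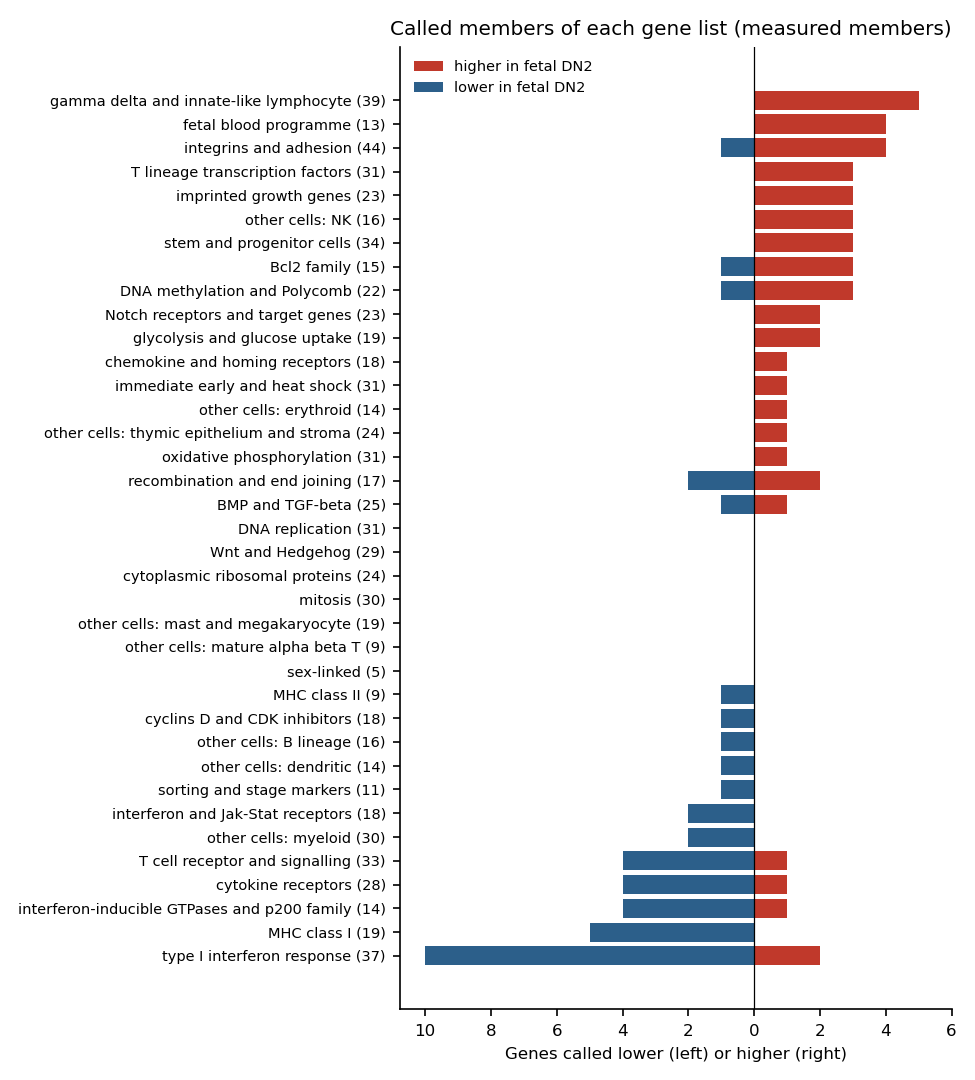
Number of genes of each list called lower in fetal DN2 (left, blue) or higher in fetal DN2 (right, red), with the number of measured members in parentheses. By number, the type I interferon list has the most falls, with 10 of 37, and the gamma delta and innate-like list the most rises, with 5 of 39. Some shorter lists have larger shares, with 4 of 14 lower for GTPases and the p200 family and 4 of 13 higher for the fetal blood programme. Over all genes 2.11% were called higher and 1.94% lower.

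The calls below of markers of other cell types stand beside 2.11% called higher and 1.94% called lower over all genes. Of 30 myeloid genes 2 were called lower in fetal DN2, the lysozyme gene *Lyz2*, at -3.65, -1.72 and -1.68 log2 in fetal DN2 and 0.05, 2.25 and 2.56 log2 in adult DN2 (-3.97 ± 0.63 log2, adjusted p = 0.00251), and the neutrophil protease gene *Ctsg*. The call of *Ctsg* (-2.42 ± 0.58 log2, adjusted p = 0.0325) ended without fetal DN2 replicate 1 (0.0751), 2 (0.111) or 3 (0.0876) or adult DN2 replicate 2 (0.0873) or 3 (0.0536). The myeloid list mean ranged from -0.47 to -0.03 log2 in fetal DN2 and from -0.11 to 0.36 log2 in adult DN2. *Csf1r* and *Itgam* stood between -0.10 and 0.12 log2, and *Mpo* differed by -1.02 ± 1.39 log2 without being called (limma adjusted p = 0.654). *Csf1r* and *Itgam* do not stand for the whole myeloid list, in which 3 genes were called lower without adult DN2 replicate 1. Of 16 B lineage genes *Ighm* was called lower, and the list mean ranged from -0.37 to -0.32 log2 in fetal DN2 and from 0.04 to 0.71 log2 in adult DN2. The B cell genes *Cd79a*, *Pax5* and *Ebf1* stood between -0.12 and 0.05 log2 in the 6 arrays. They do not stand for the whole list, in which 3 genes were called lower without adult DN2 replicate 1. The 14 dendritic genes gave 1 call, *Ly6d*, with list means from -0.24 to -0.13 log2 in fetal DN2 and from 0.30 to 0.61 log2 in adult DN2.

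Of 14 erythroid genes 1 was called higher, the factor gene *Gata1*, by 1.59 ± 0.30 log2 (adjusted p = 0.00813). The erythroid list mean was 0.05, 0.45 and 0.65 log2 in fetal DN2 and lay between -0.07 and 0.11 log2 in adult DN2, and *Hbb-y*, a globin of embryonic red cells, read 0.01, 4.53 and 2.85 log2 in fetal DN2, against -0.10, 0.00 and -0.01 log2 in adult DN2, without passing the test (adjusted p = 0.529). For this gene fetal DN2 replicate 1 stood close to the adult arrays and the other 2 far above them. Of 24 genes of thymic epithelium and stroma 1 was called higher, the keratin gene *Krt18*, by 1.86 ± 0.41 log2 (adjusted p = 0.0215), a call that ended without fetal DN2 replicate 2 (0.113) or 3 (0.0881) or adult DN2 replicate 1 (0.0713) or 3 (0.0677). The mean of that list ranged from 0.09 to 0.12 log2 in fetal DN2 and from -0.16 to 0.03 log2 in adult DN2. The 19 mast cell and megakaryocyte genes gave 0 calls, with list means from 0.14 to 0.26 log2 in fetal DN2 and from 0.01 to 0.03 log2 in adult DN2. The 9 genes of mature alpha beta T cells also gave 0 calls, with list means from -0.14 to -0.07 log2 in fetal DN2 and from -0.03 to 0.43 log2 in adult DN2. The list means of the 2 groups did not overlap in these 3 lists, nor in the B lineage, dendritic and natural killer lists. They overlapped in the myeloid and erythroid lists. The part of such cells in the differences above was not tested.

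The adult mice were female and the sex of the embryos is not given, so that age and sex cannot be told apart in full. *Xist*, which silences an X chromosome in female cells, read 0.19, -1.29 and -0.86 log2 in fetal DN2 and at 1.02, -1.45 and 0.70 log2 in adult DN2. The Y-linked *Uty* stood at -0.26, 0.19 and -0.02 log2 in fetal DN2 and at -3.64, 0.05 and -2.08 log2 in adult DN2. The arrays of both groups overlapped in both genes, and 0 of the 5 sex-linked genes measured were called. Adult DN2 replicate 2 had the lowest *Xist* value of the DN2 arrays and a *Uty* value within the fetal range, although the methods name only female adults. The reason was not tested.

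The DN2 differences were then set beside those of the stages before and after, whose group means come from other arrays. All stages were part of the same fit, in which a probe set has the same residual variance at each stage. A probe set with a small variance is thus more easily called at every stage, and the overlaps below are not those of independent tests. Of the 262 genes higher in fetal DN2, 166 were also called higher in fetal ETP (63.4% of the DN2 list and 21.7% of the 764 genes of the ETP list, which is 6.16% of all genes). At DN3 103 of them were called higher (39.3% of the DN2 list and 42.6% of the 242 genes of the DN3 list, 1.95% of all), and 70 were higher at the 3 stages. Of the 241 lower genes, 152 were also lower in fetal ETP (63.1%, and 30.2% of the 503 genes, 4.06% of all, called there) and 81 in fetal DN3 (33.6%, and 49.1% of the 165 genes, 1.33% of all, called there), and 64 at the 3 stages. Opposite calls were rare: 0 of the higher genes, and 3 of the lower genes at ETP and 1 at DN3. From ETP over DN2 to DN3, *Dntt* was lower with -11.72, -12.61 and -12.63 log2 and *Igf2bp1* higher with 6.32, 6.28 and 6.36 log2.

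Whether the fetal minus adult difference itself changed between stages was tested as an interaction in the same fit. From ETP to DN2 it moved upward for 77 genes (0.621% of those tested) and downward for 45 (0.363%), and 89 of these 122 genes were not called at DN2 itself. Against DN3, the DN2 difference was higher for 29 genes (0.234%) and lower for 59 (0.476%), of which 49 were not called at DN2. *Meis1* differed by 0.52 log2 at ETP (adjusted p = 0.215), 5.85 at DN2 and 5.98 at DN3. Its change from ETP to DN2 was 5.34 log2. *Klf4* gave -0.24, 5.17 and 4.14 log2 at the same stages, and *Hmga2* 2.81, 7.09 and 5.57 log2. *Gzma* showed the reverse course, with 9.14 log2 at ETP, 2.94 log2 at DN2 and 1.19 log2 at DN3.

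*Zbtb16* had its largest difference at DN2, being 0.71, 1.56 and 0.04 log2 from ETP to DN3. Its DN2 value alone was called, and the change to DN3 was called (1.53 log2) while that from ETP was not. *Gpx8*, a glutathione peroxidase of the endoplasmic reticulum, was higher in fetal cells at DN2 by 2.79 ± 0.23 log2 and differed by 0.25 log2 at ETP and 0.70 log2 at DN3, and both changes were called (2.53 and 2.08 log2). A course in steps was seen in *Plet1*, a surface protein of epithelial progenitors, with 0.11, 3.4 and 5.34 log2 at the 3 stages in 1 of 2 probe sets. *Serpinc1* (antithrombin) followed such a course with 0.35, 2.56 and 6.71 log2. For *Izumo1r* and *Sstr2* the DN2 difference also lay between those of ETP and DN3. It was higher than at ETP by 2.10 and 1.19 log2, and its value minus that at DN3 was -2.31 and -1.53 log2. The gap in *Podxl* was widest at DN2, with 4.57, 6.69 and 4.34 log2, and that in *Ighm* too, with -4.37, -7.98 and -2.74 log2. The changes from ETP and from DN3 were called for each of these 2 genes.

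**Figure D5:**
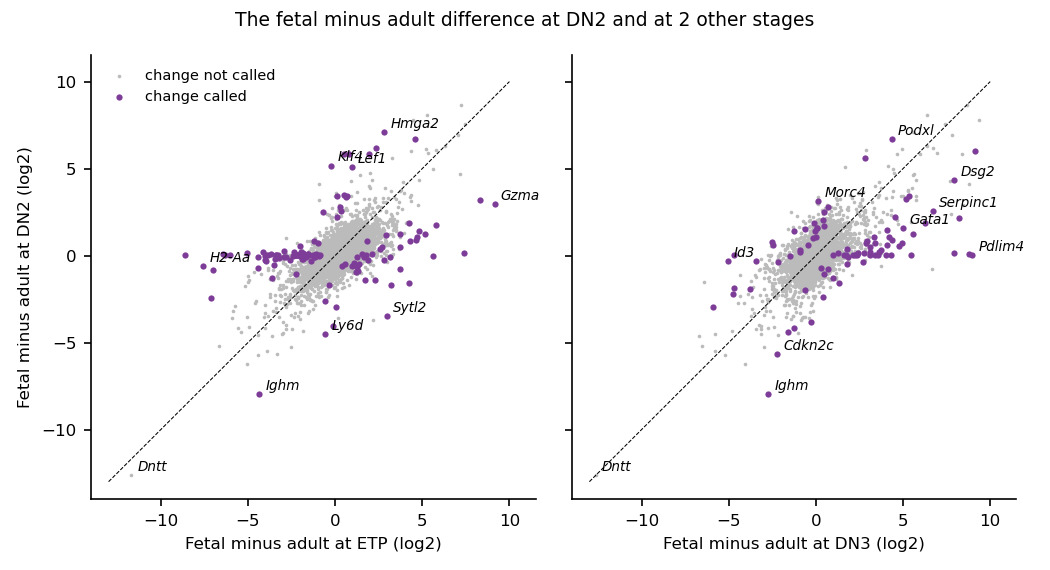
The fetal minus adult difference of each gene at DN2 (log2, vertical axis) against that at ETP (left panel) and at DN3 (right panel, log2, horizontal axes), with genes whose change between the stages was called in purple and the line of equal differences dashed. *Dntt* lies near the line in both panels, whereas *Hmga2* and *Klf4* lie above it at ETP and *Gzma* below it.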

How the data were processed

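Messenger RNA of the 18 sorted samples was measured on Affymetrix mouse genome arrays. The authors deposited log2 values made with GCRMA, named without a version in the submitters' processing notes, and each probe set of the deposited table was centred on its median over the 18 arrays (largest absolute median 5e-07), so that no filter on a low level and no definition of presence could be used. All 18 columns were assigned from the labels (0 columns not mapped). Of 22626 probe sets 20380 name 1 gene, 691 several and 1555 none in the platform annotation, and 12393 genes were measured. For the 4956 genes with several probe sets 1 was taken, preferring names without _x_at or _s_at and then the largest SD over the 18 arrays.

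The model, in limma 3.58.1 (R 4.3.3), held a mean for each group over the 18 arrays and no variance trend, leaving 12 residual degrees of freedom and a prior of 0.971. Calls needed a Benjamini-Hochberg adjusted p under 0.05 and 1.8-fold. Changes between stages were tested as interactions. The fit was tested on simulated data. The number of arrays limits the precision. Named were the 15 largest rises and falls without overlap between arrays, the 8 largest changes of each sign between stages, up to 6 called members of each gene list, the sorting, sex-linked, MHC class II, Notch and fetal programme genes, defining markers of other cells and genes of the study's text. The text names part of these, and the members and lists were chosen with earlier results of these data known.

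Deviations from the group means correlated between fetal and adult DN2 arrays of the same number (r = 0.285, 0.202 and 0.224 over probe sets, other pairs -0.269 to 0.0537), over the limit of 0.1 for each number. Deviations within a group cancel out, so that these correlations are tied to each other. Whether the numbers pair the arrays therefore cannot be decided by this measure. The labels do not say what a number shares. Alternatives were the 6 DN2 arrays alone, centring or quantile normalization of arrays, array weights (gene-by-gene method), the replicate number as a block, other fold limits, a one-way test of the 6 DN2 arrays without limma, a filter on probe sets spanning under 1 log2, the mean of a gene's probe sets, and leaving out each array or number. The block within the 6 DN2 arrays was added after seeing the data. Promoters were those of RefSeq on GRCm38.p6. Python 3.11.15, numpy 2.4.6, pandas 2.3.3 and matplotlib 3.10.9 were used.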

Additional observations from a re-analysis of the deposited data

Results flagged for a closer look

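For 34 of the named genes the fetal minus adult difference at DN2 differed from that at ETP or at DN3 by limma's interaction test, with 42 such changes in all. Values are the DN2 difference minus that of the other stage on the log2 scale. In 31 of the 42 the call held in each of the 6 fits without 1 DN2 array, and arrays of the other stages were not left out.

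Against ETP the difference was higher at DN2 for *Klf4* (5.41), *Meis1* (5.34), *Nlrp6* (5.05), *Ctsg* (4.70), *Hmga2* (4.27), *Lef1* (4.15), *Ptpn13* (3.83), *Plet1* (3.29), *Gpx8* (2.53), *Serpinc1* (2.20), *Podxl* (2.12), *Izumo1r* (2.10) and *Sstr2* (1.19). It was lower for the Rab27 effector gene *Sytl2* (-6.43), *Gzma* (-6.21), the decarboxylase gene *Ddc* (-5.80), *Khdc1a* (-5.10), *Ly6d* (-3.97), *Ighm* (-3.62) and *Ptpn22* (-1.36). The higher value of *Ctsg* at DN2 stands for a smaller fall, with -2.42 log2 at DN2 and -7.13 log2 at ETP. Not held without each array were the changes of *Lef1*, *Ly6d*, *Izumo1r*, *Sstr2* and *Ptpn22*, with highest adjusted p-values of 0.0975, 0.103, 0.0575, 0.0958 and 0.113.

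Against DN3 the difference was higher at DN2 for *Morc4* (3.01), *B3gnt5* (2.98), *Nfix* (2.83), *Podxl* (2.35), *Gpx8* (2.08), *Prom1* (2.04), *Zbtb16* (1.53), *Dnmt3a* (1.24) and *Cycs* (1.08). It was lower for *Ighm* (-5.25), the nuclear receptor gene *Pparg* (-4.36), *Serpinc1* (-4.15), *Dsg2* (-3.62), *Cdkn2c* (-3.46), *Gata1* (-3.41), *Dsp* (-3.15), *Ddc* (-2.88), *Traf3ip2* (-2.83), *Izumo1r* (-2.31), *Polm* (-2.26), *Plet1* (-1.94) and *Sstr2* (-1.53). Calls of *Morc4*, *Nfix*, *Prom1*, *Dnmt3a*, *Cycs* and *Dsp* did not hold without each array, with highest adjusted p-values of 0.136, 0.103, 0.0575, 0.0995, 0.0944 and 0.0579.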

How the results depend on the processing

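The counts of called probe sets depended on the samples in the fit. From the 6 DN2 arrays alone 104 were higher and 58 lower in fetal DN2, in place of 423 and 356. A replicate block in these 6 arrays gave 28 higher and 28 lower, and one in the 18 arrays 476 and 412, which kept 749 of the 779 calls. By a one-way test of the 6 DN2 arrays alone 613 were higher and 482 lower without adjustment, and 22 and 9 with it. The study's own analysis of variance, run over its subsets after filtering, was not repeated. Array weights gave 585 higher and 580 lower, and 343 changes between DN2 and DN3 in place of 124, and quantile normalization gave 115 changes between DN2 and ETP in place of 180. Leaving out 1 array or 1 number in both groups gave 218 to 589 higher, 186 to 470 lower, 109 to 229 changes against ETP and 84 to 171 against DN3. The lowest counts for 1 array were those without fetal DN2 replicate 2 (218 higher and 197 lower), and without number 2 they were 277 and 206. Of the 111 called genes named, 109 kept their call with the block (not *Polm* and *Dnmt3b*), 105 with array weights, 44 from the 6 DN2 arrays alone and, of the one-way tests, 110 by the unadjusted and 14 by the adjusted one, and 0 changed direction. By the mean over a gene's probe sets, 41 of those compared kept their call and 13 lost it. The cause of these shifts was not tested. The prior of 0.971 degrees of freedom adds little to the 12 of the arrays, so that fits of fewer arrays have less precision. Intensity over background is not held in centred values.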
